A study of Mus musculus with 2 samples.

Results

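The collagen chains are the gene products that carry the repeated glycine triplet and assemble as trimers into the collagens of the extracellular matrix. They were taken as every transcript cluster of the array with a single platform gene symbol made of Col, a type number, the letter a and a chain number, and this gave 42 genes of 30142 named genes, each with 1 transcript cluster. The rule used names and no expression value. The chains were placed in 5 classes from general knowledge, with 11 fibrillar, 9 FACIT (fibril-associated collagens with interrupted triple helices), 9 network, 5 beaded-filament and 4 transmembrane chains. The other 4 chains, Col15a1, Col18a1, Col26a1 and Col28a1, fall outside those classes.

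Total RNA, extracted with TRIZOL and labelled by the WT PLUS method, was measured on 1 array from Wisp1 KO cells and 1 array from WT cells. Both were adipose-derived stromal cells, the fibroblast-like progenitors that grow out of fat in culture, grown in DMEM with 15% serum from inguinal fat of mice of the C57BL/6J strain, whose age was 6 to 10 weeks. Per the labels, Wisp1 exons 1 to 5 were floxed and deleted globally by crossing to a Cre-neo line. The labels give neither the sex of the mice nor how many contributed to a sample, nor whether DNA of another strain or a selection cassette remains beside the altered Wisp1 gene. Wisp1 (now Ccn4), a secreted matricellular protein induced by Wnt signalling, was at 5.40 in KO cells and 7.79 in WT cells on the log2 scale, a difference of -2.39. The study concerned the part of Wisp1 in cartilage formation during heterotopic ossification. With 1 array per genotype there is no replicate spread, so no test was run and no p-value or error is given. Each difference is the KO value minus the WT value on the log2 scale and compares these 2 arrays, not the genotypes. In RNA of a whole culture, a different number of cells of a type and a different amount of RNA per cell cannot be told apart.

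Of 10 measured stromal progenitor markers 8 lay at or above the median level of named genes, 4.65, which 15072 of 30142 named genes reached. All 5 skeletal muscle markers reached it too, so reaching it does not identify a cell type. The mesenchymal markers Pdgfrb (10.49 in KO and 10.38 in WT cells), Thy1 (10.43 in KO and 10.34 in WT cells) and Vim (11.93 in KO and 12.01 in WT cells) were among the 8 stromal markers. Dpp4 and Nt5e lay below that level on both arrays. Dlk1, a preadipocyte marker, had the largest difference of the list (6.45 in KO and 7.03 in WT cells), followed by the hyaluronan receptor Cd44 (8.36 in KO and 8.66 in WT cells). The Y-linked genes Uty (6.28 in KO and 6.16 in WT cells) and Eif2s3y (6.16 in KO and 6.01 in WT cells) and the X-linked RNA Xist (3.18 in KO and 3.25 in WT cells) had like values on both arrays. Pdgfrb, Thy1, Vim, Dpp4, Nt5e and Xist were chosen after their values were seen.

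Fibrillar collagens build the banded fibrils of skin, tendon, bone and cartilage, with types I and III as their bulk in loose connective tissue and types V and XI as minor chains that start the fibril and set its width. FACIT collagens sit on the fibril surface, type IV forms the sheet of basement membranes, and type VI forms beaded microfilaments around cells. Fibroblasts make most of the interstitial collagens of fat, while basement membrane collagen comes from adipocytes, vessel cells and stromal cells alike. Chains that share a trimer are encoded by separate genes, some of which lie side by side in the genome.

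The sequences before the start sites of 4 chains that were higher in KO cells by 25% or more are shown, since they belong to types I, III and VI, described next. They are the ones whose 250 bases before an annotated start lie wholly outside the gene's own span. The sequences are those of RefSeq for GRCm38.p6, read 5′ to 3′ on the strand of the gene and ending at the base before the start. Capitals mark matches, on either strand, to TATAAA (the TATA box), CCAAT (the box bound by NF-Y), GGGCGG (the GC box bound by Sp1) and CAGACA (a SMAD-type element). No match overlaps another in these sequences.
Col1a2 (chr6:4505368-4505617, + strand): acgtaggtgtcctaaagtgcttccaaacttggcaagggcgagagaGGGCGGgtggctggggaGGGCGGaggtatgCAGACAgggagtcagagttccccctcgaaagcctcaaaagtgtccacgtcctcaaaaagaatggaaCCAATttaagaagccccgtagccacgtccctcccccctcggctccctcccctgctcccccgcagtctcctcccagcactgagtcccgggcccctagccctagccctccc
Col3a1 (chr1:45311288-45311537, + strand): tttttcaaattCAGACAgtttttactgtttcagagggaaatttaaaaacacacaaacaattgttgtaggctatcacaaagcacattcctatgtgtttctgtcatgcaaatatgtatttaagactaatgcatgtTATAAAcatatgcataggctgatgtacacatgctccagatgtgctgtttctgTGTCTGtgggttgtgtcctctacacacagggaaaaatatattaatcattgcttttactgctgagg
Col6a1 (chr10:76726045-76726294, - strand): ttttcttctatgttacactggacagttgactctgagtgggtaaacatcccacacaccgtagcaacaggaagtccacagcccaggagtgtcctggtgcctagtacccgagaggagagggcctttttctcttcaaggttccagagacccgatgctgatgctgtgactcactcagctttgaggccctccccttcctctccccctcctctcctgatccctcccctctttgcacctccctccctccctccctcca
Col6a2 (chr10:76623631-76623880, - strand): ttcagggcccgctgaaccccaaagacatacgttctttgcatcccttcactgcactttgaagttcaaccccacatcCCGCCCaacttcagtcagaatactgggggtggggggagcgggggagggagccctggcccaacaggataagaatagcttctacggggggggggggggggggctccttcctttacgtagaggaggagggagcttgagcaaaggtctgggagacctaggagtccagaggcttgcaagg

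Col1a2 held 2 GC boxes, 1 CAGACA and 1 CCAAT, the last at 109 bases before the start. Col3a1 held a TATAAA at 117 bases before the annotated start and CAGACA at 239 and 65 bases. Col6a2 held 1 GC box and Col6a1 none of the 4 motifs. The promoter table had 33 of the 42 chain genes, in 36 windows of 250 bases. GGGCGG was in 20 of these windows (55.6%), against 32.7% of all 32851 windows of the table. CCAAT was in 30.6% of chain windows and 33.8% of all windows, TATAAA in 13.9% and 12.4%, and CAGACA in 22.2% and 17.1%. Of the 8 chains with a promoter that differed by at least 0.32 on the log2 scale in either direction, 4 held GGGCGG, 4 CAGACA, 2 CCAAT and 1 TATAAA. Such a match is a description of letters, and no binding was measured.

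The chains as a whole lay slightly above the rest of the array, and the excess was in particular classes. Of the 42 chains 29 were higher, 9 lower and 4 exactly equal in KO cells, with a median difference of 0.06. Over all 30142 named genes 14161 were higher, 14278 lower and 1703 equal, with a median of 0. Counts past a threshold used only genes whose mean of the KO and WT values reached the median level of named genes, which 36 chains and 15072 genes did. The 6 chains below it were Col19a1, Col10a1, Col4a6, Col6a5, Col6a6 and Col25a1.

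Differences were counted past 0.32 on the log2 scale, which is a KO value 25% above the WT value in linear signal, and by the same log2 size in the lower direction. Of the 36 chains 10 were higher in KO cells by at least 0.32, a size that 3.89% of the 15072 genes reached. Col28a1 alone was lower by at least 0.32, against 2.64% of genes. Among those 15072 genes 56.9% were higher to some extent, with a median of 0.03, and the 36 chains had a median of 0.10. The 15072 genes had 586 calls higher and 398 lower (59.6% higher), a split that turned to 46.7% higher with quantile normalization and 47.9% with loess centring. The chains had 9 higher and 1 lower with each of them. At 2-fold, 1 chain was higher (0.0663% of genes) and none lower (0.0995% of genes). The chain just inside the threshold of 0.32 was Col5a2 at 0.332 and the one just outside was Col15a1 at 0.319.

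**Figure D1:**
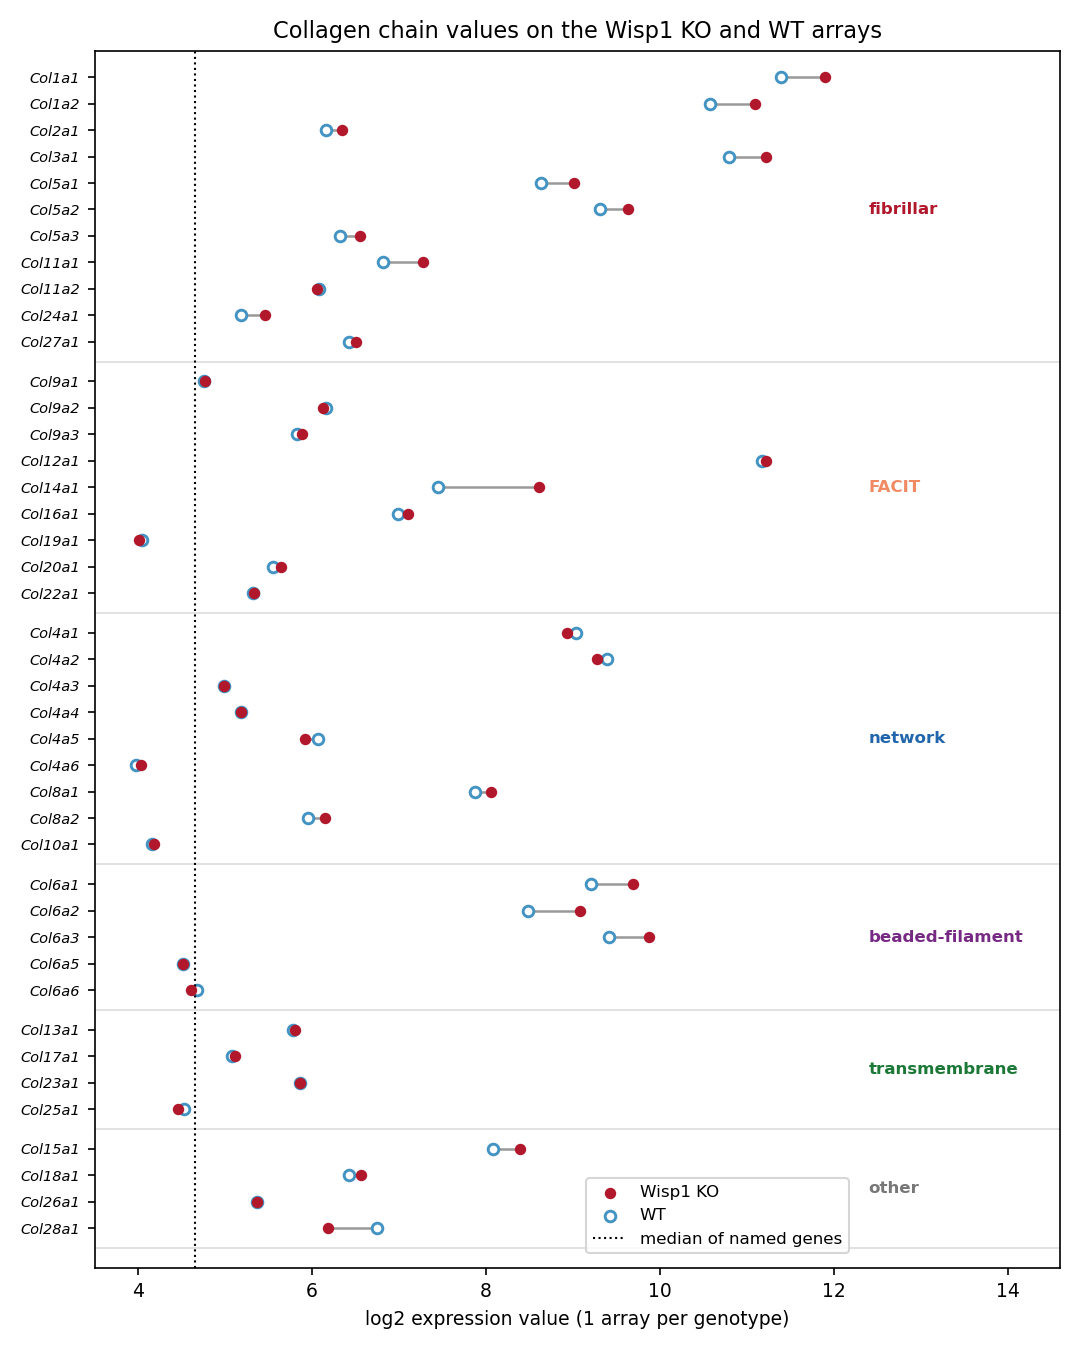
The log2 value of each of the 42 collagen chains on the Wisp1 KO array (filled red) and the WT array (open blue), grouped by class on the vertical axis, with the median of named genes as a dotted line at 4.65. The gap between the points of a chain is its difference, widest for Col14a1, and positions of different chains are not comparable because each has its own probes.

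The fibrillar class was higher almost throughout, with 10 of 11 chains higher, 6 of 11 past 0.32 and a median of 0.33. Of the 15072 genes 56.9% were higher to some extent and 3.89% by at least 0.32, with a median of 0.03. Type I collagen, the main protein of fibrous tissue, is a trimer of Col1a1 and Col1a2 chains. Col1a1 was at 11.90 in KO cells and 11.40 in WT cells, and Col1a2 at 11.10 in KO cells and 10.57 in WT cells. The differences were 0.50 and 0.52, or 1.42-fold and 1.44-fold, so both chains of the trimer were higher by nearly the same amount. Among the 429 genes whose mean lay within 0.5 of that of Col1a2, 0.466% were at least as high as it, itself included. For Col1a1 the share was 1.14% of 264 genes.

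Type III collagen, the homotrimer of Col3a1 that copolymerises with type I in stretchable tissue, was at 11.22 in KO cells and 10.80 in WT cells (0.43). Type V collagen nucleates type I fibrils and limits their width. Its main chain Col5a1 was at 9.02 in KO cells and 8.63 in WT cells (0.39), and its partner Col5a2 was at 9.64 in KO cells and 9.31 in WT cells (0.33). Col5a3, the chain of a less widespread type V trimer, was at 6.55 in KO cells and 6.33 in WT cells (0.23). All chains of types I, III and V were thus higher in KO cells, and Col5a3 alone among them was short of 0.32. Col5a2 was short of it too, at 0.31, with quantile normalization, and at 0.30 with loess centring.

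The fibrillar chains known from cartilage did not share 1 pattern. Col11a1, a type XI chain of cartilage fibrils that fibroblasts also make, was at 7.28 in KO cells and 6.82 in WT cells (0.46). Its partner Col11a2 was at 6.06 in KO cells and 6.08 in WT cells, and its difference of -0.02 was the lowest of the class. Col2a1, the major collagen of cartilage, was at 6.34 in KO cells and 6.16 in WT cells (0.18). Of the 15072 genes 13.9% reached or exceeded that difference. The gap between Col11a1 and Col11a2, 0.48, was wider than that within any other multi-chain type except VI. Col24a1, a chain of developing bone, was at 5.46 in KO cells and 5.18 in WT cells (0.27), and Col27a1, a cartilage chain, at 6.50 in KO cells and 6.43 in WT cells (0.07).

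**Figure D2:**
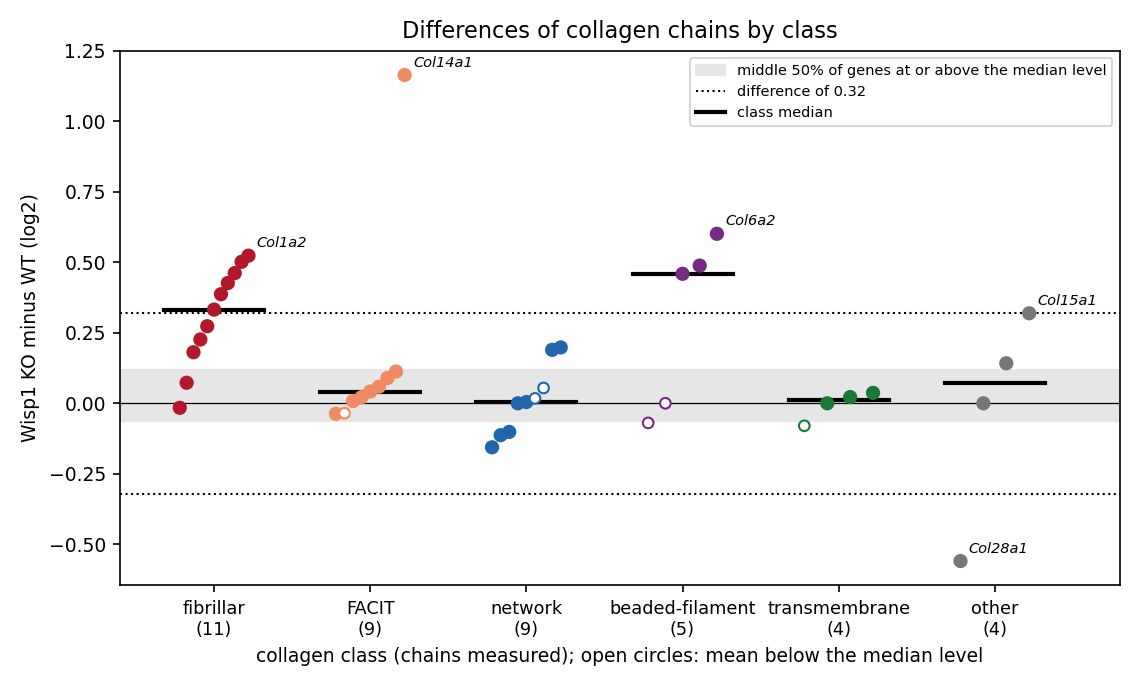
The KO minus WT difference (log2) of each chain by class, with the class median as a bar, the middle 50% of genes at or above the median level in grey and a difference of 0.32 in either direction as dotted lines. Fibrillar chains run from -0.02 to 0.52 and the upper 3 beaded-filament chains from 0.46 to 0.60, while Col14a1 at 1.16 and Col28a1 at -0.56 stand apart from their own groups.

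Type VI collagen, the beaded filament that links cells to fibrils and is made in quantity by fat stroma, had a class median of 0.46 over 5 chains, above that of the fibrillar class (0.33). The classical trimer joins Col6a1, Col6a2 and Col6a3. Col6a1 was at 9.70 in KO cells and 9.21 in WT cells (0.49). Col6a2 was at 9.09 in KO cells and 8.48 in WT cells (0.60). Col6a3, the longest chain and the precursor of the fragment endotrophin, was at 9.87 in KO cells and 9.41 in WT cells (0.46). All chains of this trimer were past 0.32 (3.89% of the 15072 genes), between 1.37-fold and 1.52-fold higher. Col6a5 and Col6a6, which can take the place of Col6a3 in some tissues, were below the median level, with 4.52 on both arrays for Col6a5 and with 4.61 in KO cells and 4.68 in WT cells for Col6a6. With Col6a4, whose cluster also carries the symbol Dvwa and is therefore not a member, the class median was 0.23, below the fibrillar one (Col6a4 was at 4.72 in KO cells and 4.79 in WT cells). The mean over chains gave 0.30 for the beaded-filament class and 0.31 for the fibrillar class, so the order of these classes turns with the summary used.

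The FACIT class held the largest difference of all chains but was otherwise nearly level, with 7 of 9 chains higher, 2 lower and a median of 0.04. Col14a1, a fibril-surface collagen of tendon and dermis that regulates fibril growth, was at 8.61 in KO cells and 7.44 in WT cells. Its difference of 1.16, or 2.24-fold, was the highest among the 2077 genes of like level, and 0.0464% of the 15072 genes reached it. Col12a1, its close structural relative, was at 11.22 in KO cells and 11.18 in WT cells, a difference of 0.04 that became -0.02 with quantile normalization and -0.0014 with loess centring. These related chains thus had unlike differences on the arrays.

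The other FACIT chains differed by 0.11 or less in either direction. Col16a1, which associates with fibrils and with microfibrils, was at 7.11 in KO cells and 6.99 in WT cells (0.11), and Col20a1 at 5.64 in KO cells and 5.55 in WT cells (0.09). The type IX chains, which coat cartilage fibrils, differed by 0.0083 (Col9a1), -0.04 (Col9a2) and 0.06 (Col9a3). Col22a1, a collagen of tissue junctions such as that of muscle and tendon, differed by 0.02, and Col19a1 by -0.04. Beside Col14a1, 4 of 5 tendon markers were higher in KO cells and 1 lower. Of the 3 above the level filter 1 was higher by at least 0.32 (3.89% of the 15072 genes), Tnmd (8.43 in KO and 7.50 in WT cells). Thbs4 was at 5.26 in KO and 5.01 in WT cells. The tendon transcription factors were near level, Scx at 6.11 in KO and 6.01 in WT cells and Mkx, below the median level, at 3.77 and 3.80. The summed linear signal of the 5 markers, of which Tnmd was the brightest, was 472 in KO cells and 296 in WT cells. The part of these markers in the difference of Col14a1 was not tested, and Scx and Mkx were chosen after their values were seen.

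**Figure D3:**
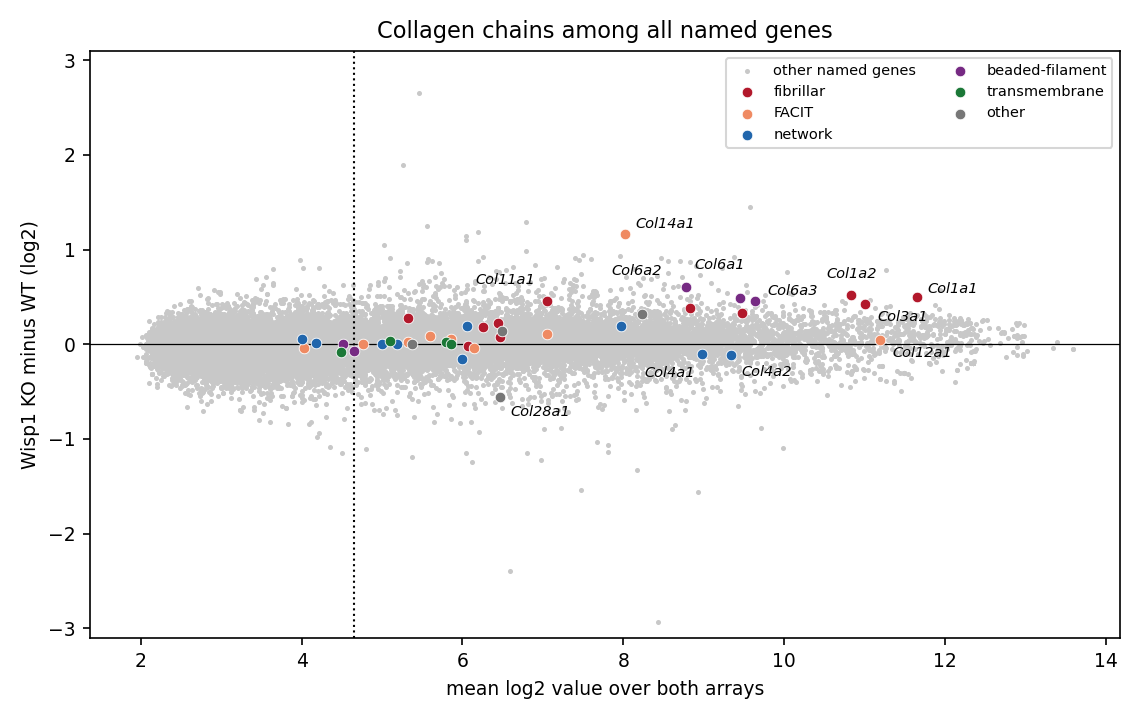
The difference of every named gene against its mean over both arrays (log2), with collagen chains in colour and the median of named genes as a dotted line. Chains of types I and III and the chains Col6a1, Col6a2 and Col6a3 lie at the upper edge of genes of like level, and Col4a1 and Col4a2 within the cloud.

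Col14a1 lies on chromosome 15, which per the labels also holds Wisp1, and 48 protein-coding genes of the RefSeq table separate them. The gene next to Col14a1 on one side, Deptor, an inhibitor of the mTOR kinase, was at 6.25 in KO cells and 5.87 in WT cells (0.37). The gene on the other side, Mrpl13, a mitochondrial ribosomal protein, was at 6.88 in KO cells and 6.65 in WT cells (0.24). Ccn3, a relative of Wisp1 that lies 4 genes from Col14a1, was at 8.78 in KO cells and 8.07 in WT cells (0.72). The genes on both sides of Col14a1 were thus higher in KO cells as well. Slightly farther out on the side of Ccn3, Tnfrsf11b, which encodes the decoy receptor osteoprotegerin, went the other way, at 6.30 in KO cells and 6.92 in WT cells (-0.61).

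Of 26 genes between Col14a1 and Wisp1 that passed the level filter, 19 were higher, 5 lower and the rest equal, with a median of 0.10. Of them 3 were past 0.32, all higher: Mtbp (0.35), the hyaluronan synthase Has2 (0.35) and Myc (0.36). Thus 11.5% of the 26 were past it in either direction. The share was 6.75% for the 459 such genes of the chromosome and 6.53% for all 15072 such genes. Next to Wisp1 itself, Ndrg1 was at 6.577 in KO cells and 7.004 in WT cells (-0.43) and Sla, below the median level, at 3.14 in KO cells and 3.22 in WT cells. The other chains of this chromosome lay nearer or farther without such a difference: Col22a1, 5 genes from Wisp1, at 0.02 and Col2a1, 385 genes from it, at 0.18. The neighbours of Col22a1, both below the median level, were Fam135b (0.03) and Kcnk9 (-0.04), and those of Col2a1 were Tmem106c (-0.18) and Senp1 (0.0073). An effect of the altered locus on Col14a1 and an effect of the loss of Wisp1 protein cannot be told apart in this design, and the same holds for any DNA of another strain that remains around the gene. Ccn3, Tnfrsf11b, Mtbp, Has2, Myc, Ndrg1 and Sla were chosen after their values were seen.

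**Figure D4:**
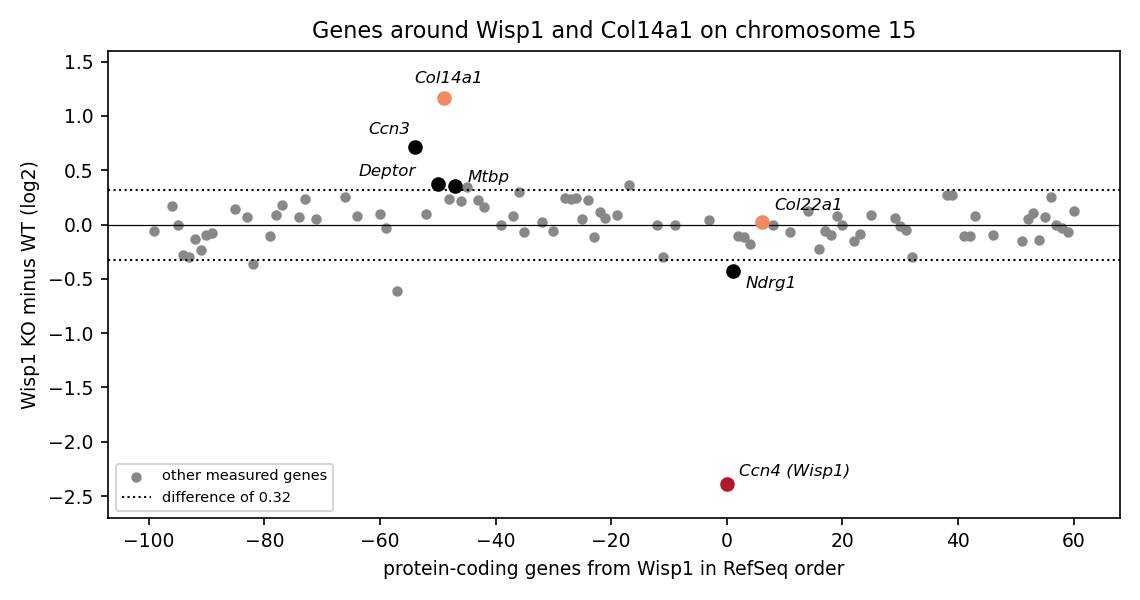
The KO minus WT difference (log2) of genes at or above the median level on chromosome 15, by the number of protein-coding genes from Wisp1 (0) in RefSeq order, from -100 to 60, with a difference of 0.32 in either direction as dotted lines. Wisp1 is at -2.39 and Col14a1 at 1.16, with Ccn3, Deptor and Mtbp above the upper line close to Col14a1.

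Network collagens did not share the higher values of the fibrillar chains. Of 9 chains 5 were higher, 3 lower and 1 equal. The median was 0.0044, with a sign that turned under quantile normalization (-0.01) and loess centring (-0.0036). None of the 7 that passed the level filter was past 0.32, a size that few of the 15072 genes reached (3.89% higher and 2.64% lower). Col4a1 and Col4a2, the trimer partners of every basement membrane, were slightly lower. Col4a1 was at 8.93 in KO cells and 9.03 in WT cells (-0.10), and Col4a2 at 9.28 in KO cells and 9.39 in WT cells (-0.11). Among all genes 17.5% and 15.8% were at least as low, so neither stood far from the bulk. Col4a5, an X-linked chain of kidney and smooth muscle basement membranes, was at 5.92 in KO cells and 6.07 in WT cells (-0.16), the lowest of the class. Col4a3 and Col4a4, its partners in kidney, differed by 0 and 0.0044, and Col4a6 by 0.05.

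The hexagonal network chains of type VIII, found around vessels and in the cornea, went the other way from Col4a1 and Col4a2. Col8a1 was at 8.06 in KO cells and 7.87 in WT cells (0.19), and Col8a2 at 6.15 in KO cells and 5.95 in WT cells (0.20). Col10a1, the marker collagen of hypertrophic cartilage, was below the median level at 4.18 in KO cells and 4.17 in WT cells (0.02). Beside the lower chains Col4a1, Col4a2 and Col4a5, markers of pericytes and smooth muscle were lower in 6 of 7 genes. Over all 30142 named genes 14278 were lower. Of the 6 above the level filter 3 were lower by at least 0.32, against 2.64% of the 15072 genes. The list was led by Mcam (7.82 in KO and 8.51 in WT cells) and Myh11 (7.76 in KO and 8.27 in WT cells). The summed linear signal of the 7 genes was 10600 in KO cells and 11900 in WT cells. Of 8 endothelial markers 5 were higher and 3 lower, with sums of 187 in KO cells and 173 in WT cells, and 6 of them lay below the median level. The other 2 were Tek (5.47 in KO and 5.61 in WT cells) and Cldn5 (5.17 in KO and 5.18 in WT cells), while the defining markers Pecam1 (3.64 in KO and 3.56 in WT cells) and Cdh5 (4.62 in KO and 3.81 in WT cells) were below it. Of 7 adipocyte markers 3 were higher and 4 lower, with sums of 189 in KO cells and 217 in WT cells, and 4 lay below the median level, Adipoq (3.86 in KO and 4.50 in WT cells) among them. Above it, Fabp4 was at 5.66 in KO cells and 5.77 in WT cells, and Plin1 at 4.87 in KO cells and 4.83 in WT cells. The part of these cell types in the type IV values was not tested, and Pecam1, Cdh5 and Adipoq were chosen after their values were seen.

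Transmembrane collagens, which span the cell membrane and are shed from it, were nearly level. Of 4 chains 2 were higher, 1 lower and 1 equal, with a median of 0.01 that turned to -0.03 with quantile normalization and -0.01 with loess centring. Col17a1, the hemidesmosome collagen of epithelia, was at 5.11 in KO cells and 5.08 in WT cells (0.04). Col13a1, a collagen of cell adhesion sites and the neuromuscular junction, was at 5.80 in KO cells and 5.78 in WT cells, a difference of 0.02 that was -0.02 with quantile normalization and -0.0014 with loess centring. Col23a1 had 5.86 on both arrays, and Col25a1, a chain of motor nerve targets, was below the median level at 4.45 in KO cells and 4.53 in WT cells.

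The 4 chains outside these classes held the only chain lower by at least 0.32. Col28a1, a von Willebrand domain collagen known from peripheral nerve, was at 6.19 in KO cells and 6.75 in WT cells, a difference of -0.56, or 1.47-fold lower, and 0.549% of 3823 genes of like level were at least as low. The Schwann cell markers measured with it, Sox10 (5.27 in KO and 5.22 in WT cells) and S100b (5.06 in KO and 5.21 in WT cells), numbered 2 of the 4 listed, with sums of 71.8 in KO cells and 74.2 in WT cells, and their part in Col28a1 was not tested. The multiplexins are basement membrane zone collagens with anti-angiogenic C-terminal fragments. Col15a1 was at 8.40 in KO cells and 8.08 in WT cells (0.319), just under the threshold, and Col18a1, the precursor of endostatin, at 6.56 in KO cells and 6.42 in WT cells (0.14). Col26a1 had 5.37 on both arrays. The anchoring fibril gene Col7a1 shares its cluster with the symbol Mir711 and is not a member, and that cluster was at 6.34 in KO cells and 6.36 in WT cells.

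Exact equality on both arrays was seen for Col4a3, Col6a5, Col23a1 and Col26a1, that is 9.52% of chains. It was seen for 5.65% of named genes and for 4.45% of all transcript clusters.

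Chains of 1 collagen type could be set side by side for 7 of the 26 types measured. In 3 of these the chains differed from each other by under 0.1: type I (0.02), type VIII (0.0085) and type IX (0.096). The chains of type V spanned 0.16, those of type IV 0.21, those of type XI 0.48 and those of type VI 0.67, while all 42 chains spanned 1.72. Within type VI the span lay between the 3 chains of the classical trimer and the dim chains Col6a5 and Col6a6.

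Collagen genes that lie next to each other in the RefSeq order form 7 pairs with both genes among the chains. Col6a5 also lies next to Col6a4, which is not a member. How alike other neighbouring genes were was not measured. The middle 50% of named genes spanned only -0.09 to 0.09, so a small gap between genes near 0 is common. Col4a1 and Col4a2, on chromosome 8, run away from each other on opposite strands from annotated starts 21 bases apart, and their differences were 0.01 apart (-0.10 and -0.11). Col6a2 and Col6a1, on chromosome 10, had differences of 0.60 and 0.49, and Col3a1 and Col5a2, on chromosome 1, of 0.43 and 0.33. The pairs Col9a1 with Col19a1 (0.0083 and -0.04), Col4a4 with Col4a3 (0.0044 and 0) and Col6a6 with Col6a5 (-0.07 and 0) were nearly level in both members. Col4a6 and Col4a5, on the X chromosome, had the widest gap, 0.21 (0.05 and -0.16). Several of these pairs also share a trimer, so position and assembly cannot be told apart here.

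The enzymes and chaperones that fold procollagen were mostly higher together with the chains. Of 17 measured genes 13 were higher and 4 lower (median 0.14), and 4 of the 15 that passed the level filter were higher by at least 0.32 (3.89% of all 15072 genes) and none lower by it (2.64%). Plod1, the lysyl hydroxylase of the triple helix, was at 8.6901 in KO cells and 8.0006 in WT cells (0.69), and Plod2, which hydroxylates the telopeptides used in crosslinks, was at 9.84 in KO cells and 9.21 in WT cells (0.62). Genes of procollagen export from the endoplasmic reticulum were higher in 8 of 9 cases with a median of 0.14, where 14161 of all 30142 named genes were higher. None of the 8 that passed the level filter was past 0.32, a size that few of the 15072 genes reached (3.89% higher and 2.64% lower). Sar1b was at 9.44 in KO cells and 9.24 in WT cells, and the coat protein gene Sec24d at 9.46 in KO cells and 9.29 in WT cells.

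Genes of later assembly steps were mixed. Of 9 genes that remove or help remove propeptides 6 were higher and 3 lower (median 0.03), a balance that was 4 and 5 with quantile normalization and with loess centring. Tll1, a tolloid protease that cuts the C-propeptide, was at 4.78 in KO cells and 5.97 in WT cells (-1.19). It was past 2-fold lower, as were 0.0995% of the 15072 genes. Its relative Bmp1 was at 9.95 in KO cells and 9.74 in WT cells (0.20). The 4 crosslinking oxidases measured had a median of 0.03, which was -0.01 with loess centring, with Lox at 12.12 in KO cells and 12.04 in WT cells and Loxl3 at 8.77 in KO cells and 8.72 in WT cells.

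Of 9 small proteoglycans that bind fibrils 8 were higher, with a median of 0.38. Of the 8 that passed the filter 5 were higher by at least 0.32 (3.89% of the 15072 genes). The summed linear signal of the 9 was nearly level, at 14800 in KO cells and 14500 in WT cells. This sum is led by the brightest members, Bgn (12.91 in KO and 12.82 in WT cells) and Prelp, which was lower in KO cells. Bgn was chosen after its value was seen. Ogn, which regulates fibril growth, was at 9.84 in KO cells and 8.92 in WT cells (0.92), and Lum, the lumican gene, at 5.39 in KO cells and 4.79 in WT cells (0.60). Prelp, an anchor between basement membrane and fibrils that was chosen after its value was seen, was lower by at least 0.32, at 11.93 in KO cells and 12.32 in WT cells (-0.40).

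Collagen receptors were lower in 7 of 10 cases, with a median of -0.07. Of the 7 above the level filter 1 was higher by at least 0.32 (3.89% of the 15072 genes), Itga11. This fibroblast integrin for fibrillar collagen was at 9.26 in KO cells and 8.40 in WT cells (0.87), while Ddr2, a receptor kinase for fibrillar collagen, was at 9.62 in KO cells and 9.89 in WT cells (-0.26). Of 9 genes of collagen breakdown 7 were higher with a median of 0.06, none past 0.32 among the 4 above the level filter, with the gelatinase Mmp2 at 10.80 in KO cells and 10.53 in WT cells and the membrane-bound collagenase Mmp14 at 11.04 in KO cells and 10.85 in WT cells. Among 9 regulators of collagen genes 6 were higher and 3 lower (median 0.05). Egr1, an early response factor, was at 7.68 in KO cells and 7.06 in WT cells (0.63), and Sox9, which drives Col2a1 and Col11a2 in cartilage, was at 8.93 in KO cells and 8.56 in WT cells (0.37).

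**Figure D5:**
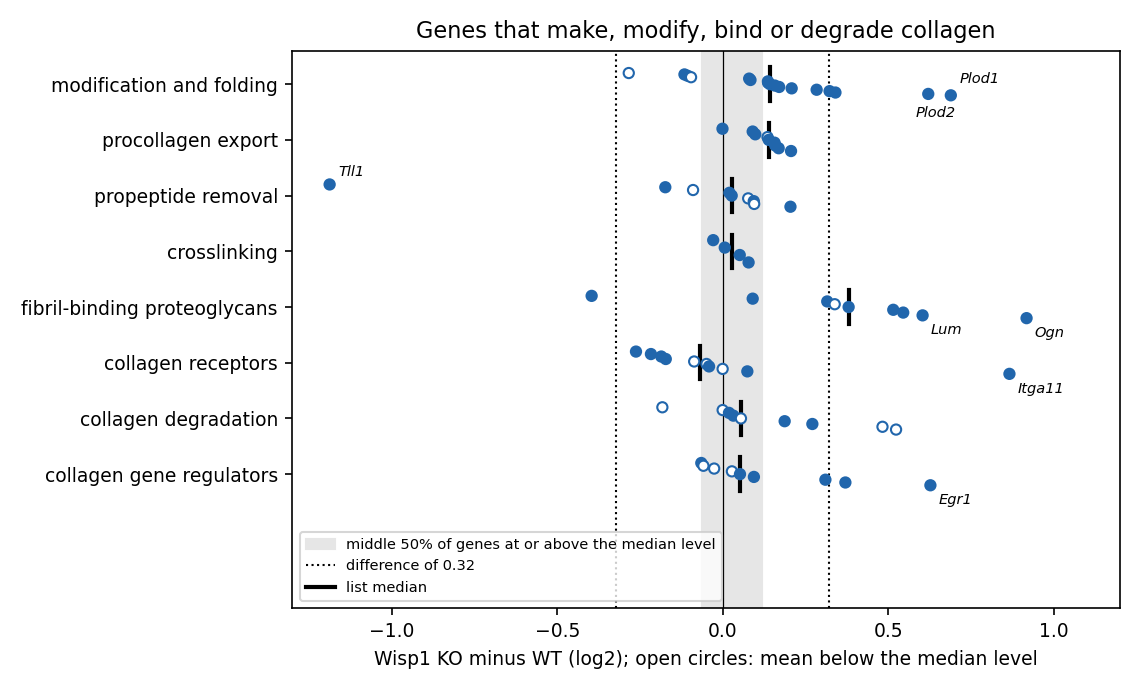
The KO minus WT difference (log2) of genes in 8 lists of collagen handling, with list medians as bars, the middle 50% of genes at or above the median level in grey and a difference of 0.32 in either direction as dotted lines. Fibril-binding proteoglycans have the highest list median, 0.38, and the collagen receptors the lowest, -0.07, with Itga11 and Tll1 far from their lists.

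Several macrophage and cell cycle genes were also higher on the KO array beside the fibrillar and type VI chains. Of 10 macrophage markers 6 were higher, 3 lower and 1 equal, with sums of linear signal of 484 in KO cells and 311 in WT cells. Of the 6 above the level filter 5 were higher by at least 0.32 (3.89% of the 15072 genes) and none was lower by it. Lyz2 was past 2-fold (0.0663% of these genes). The list was led by Lyz2 (7.43 in KO and 6.14 in WT cells) and Fcer1g (6.02 in KO and 5.13 in WT cells), and Cd68 was at 6.35 in KO cells and 5.77 in WT cells. The defining receptors Csf1r and Adgre1 lay below the median level on both arrays. All 7 proliferation genes measured were higher (median 0.20) in the deposited values, where 56.9% of the 15072 genes were higher to some extent. With quantile normalization 6 of the 7 were higher and 1 lower. Of the 7, all above the level filter, 2 were higher by at least 0.32 (3.89% of the 15072 genes). These were Ccnb2 (6.73 in KO and 6.20 in WT cells) and Mki67 (6.87 in KO and 6.40 in WT cells). Chondrocyte markers were higher in 6 of 8 cases with a median of 0.09, where 14161 of all 30142 named genes were higher and 14278 lower. Of the 4 above the level filter 1 was higher by at least 0.32 (3.89% of the 15072 genes), Sox9. Comp was at 8.05 in KO cells and 7.94 in WT cells. Acan, chosen after its value was seen, was at 4.31 in KO cells and 4.19 in WT cells, below the median level. Osteoblast markers were lower in 4 of 6 cases with a median of -0.08, but only 2 passed the level filter. These went opposite ways, with Bglap at 5.32 in KO cells and 5.51 in WT cells and Alpl at 6.04 in KO cells and 5.96 in WT cells. Epithelial markers were lower in 5 of 6 cases (median -0.07), and again only 2 passed the level filter. These were Krt14 (4.750 in KO and 4.804 in WT cells) and Krt8 (4.93 in KO and 4.89 in WT cells), which went opposite ways. Skeletal muscle markers were lower in 3 of 5 cases (median -0.08), with Myh3 at 5.31 in KO cells and 5.00 in WT cells and Myog at 5.35 in KO cells and 5.47 in WT cells. Cd68, Csf1r and Adgre1 were also chosen after their values were seen. The part of any of these in the collagen differences was not tested.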

How the data were processed

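Each array was deposited as log2 values, 1 for each transcript cluster. The submitters' processing notes name RMA, which subtracts background, equalises arrays and summarises probes, and Partek. Their versions and the build of the array design are not given in the sources used here. That the scale is log2 was inferred from its span, 1.74 to 13.65 in KO and 1.88 to 13.62 in WT cells. RMA values have no true 0, and dim differences are compressed. With 1 array per genotype, the number of arrays limits precision.

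Of 65956 clusters 30604 had 1 symbol, updated through Entrez IDs with the RefSeq table of GRCm38.p6 (22818 found), and the brightest cluster was kept per gene. Counts past a fold used genes with a mean at or above 4.65. Named genes were all chains, Wisp1, chain neighbours and, per list, members past 2-fold and the 2 with the largest difference, both above the level filter. Of 174 list entries 161 were measured. The chains, classes and lists were chosen with earlier results of these data known. Alternatives were no filter or one on the brighter array, median centring, quantile normalization, loess (span 0.3), cluster means, clusters with several symbols, a 1.5-fold threshold and class means; the comparison with genes of like level (mean within 0.5) was added after seeing the data. The scripts were tested on simulated data and used Python 3.11.15, pandas 2.3.3 with numpy 2.4.6, matplotlib 3.10.9 for figures and, for loess, statsmodels 0.14.6.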

Additional observations from a re-analysis of the deposited data

How the results depend on the processing

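Chain differences were recomputed, 210 in all, with median centring, quantile normalization, loess centring, cluster means and clusters with several symbols kept. Each chain has 1 cluster, so cluster means and clusters with several symbols could not change any of them. Median centring added the same 0.015 to every chain. The largest move of a chain difference was 0.062, and no chain past 0.32 changed sign. Col12a1, Col13a1 and Col4a4, all within 0.042 of 0, changed sign under quantile normalization and loess centring. The count of chains higher by at least 0.32 lay between 9 and 11 under these settings and both filter alternatives, but was 2 at 1.5-fold, where none was lower (0, against 1 at the threshold used). The mean over chains in place of the median gave 0.16 for the FACIT class, which holds Col14a1, and 0.30 for the beaded-filament class, whose median with clusters of several symbols kept was 0.23. Without a filter, the calls over all genes were 819 higher and 922 lower. No paired analysis was possible because each genotype has 1 array. The cause of these shifts was not tested, and with 1 array per genotype no difference could be set against replicate error.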
